A study of Homo sapiens with 14 samples.

Results

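The MYC family was described here as the accessible chromatin at 8 genes: MYC, PVT1, MYCN, MYCL, MAX, MXD1, MXI1 and MNT. Reference peaks of MM.1S and RPMI8226, which are 2 human cell lines of multiple myeloma (MM), were taken at each gene body plus 100 kb on each side. For MYC and its neighbor PVT1 the peaks within 1 Mb on each side of the MYC start were taken instead, so that both genes shared 1 window and the 8 genes gave 7 windows. The windows held 152 of the 72802 reference peaks of MM.1S and 136 of the 79969 of RPMI8226. All 8 genes had an accessible promoter in both lines, as had 77% of protein-coding genes in MM.1S and 72% in RPMI8226. The surroundings of MYC held 78 peaks in MM.1S and 62 in RPMI8226. Of these, 43 and 42 were called in every library of their line, a limit of 9 calls in MM.1S and 5 in RPMI8226. Over the whole lists, 52% of MM.1S peaks and 64.1% of RPMI8226 peaks met this limit. With MM.1S peaks limited to a support of 6 or more, the counts were 60 and 62.

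MYC, MYCN and MYCL are transcription factors that pair with MAX and bind the E-box sequence CACGTG to activate genes for growth and metabolism. MXD1, MXI1 and MNT also pair with MAX at E-boxes, and these pairs repress transcription. PVT1 is a long noncoding RNA gene downstream of MYC that hosts several microRNAs and enhancers, and rearrangements of the MYC and PVT1 region are well known in MM. Accessible regions far from a gene start often mark enhancers, but accessibility alone shows neither enhancer activity nor which gene an enhancer serves.

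Chromatin accessibility had been profiled with Omni-ATAC, in which a transposase cuts and tags open DNA, in MM cells grown alone (MONO) or cocultured with HS5, a human bone marrow stromal cell line. In the TSW group the MM cells sat in an upper transwell behind a membrane, and in the CO group they shared the lower chamber with HS5 cells. Cocultured MM cells were sorted as CD90-CD38+ cells. MM.1S had 9 libraries (3 MONO, 3 TSW and 3 CO) and RPMI8226 had 5 (1 MONO, 2 TSW and 2 CO). A reference peak was a region that the authors called in at least 3 libraries of a line, whatever the culture. The only value of a peak is a whole number, read as its support, the number of libraries with the peak. It ran from 3 to 9 in MM.1S and from 3 to 5 in RPMI8226. Each line had 1 list that pooled MONO, TSW and CO, without read counts. The lists give no depth. The study states read totals of the libraries, which were larger for most MM.1S libraries than for those of RPMI8226 and were not used as data here, and their part in the results was not tested. Without values for single libraries, no replicate error and no test between the lines or cultures could be had, and all differences below are descriptions of 2 lists. Promoters of all 8 plasma cell markers checked had a peak in both lines, and those of 7 of 8 stromal markers in MM.1S and 5 of 8 in RPMI8226, where 77% and 72% of the 19970 protein-coding genes had a promoter peak. THY1, which encodes the sort marker CD90, had none in either line. The part of stromal cells in the results was not tested.

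Of the promoter peaks of the genes off the MYC chromosome, some of MAX, MNT and MXD1 held the E-box, the sequence that their own protein products bind as pairs with MAX. Over the whole lists, 12% of MM.1S and 8.1% of RPMI8226 peaks of any width held it. Its share among promoter peaks of like width was not taken. The 5 sites below are shown because they are places where the network's binding sequence lay in accessible chromatin of its own genes. Each is 30 bases of hg38 in the direction of the gene, with CACGTG in capitals, which reads the same on both strands.
MAX, chr14:65102849-65102878, in peaks of both lines: tccagctccctcCACGTGtcctgtcttccc
MAX, chr14:65103250-65103279, in the MM.1S peak alone: acgctggagcctCACGTGagtagctgagta
MNT, chr17:2399717-2399746, in peaks of both lines: tccgcccccgacCACGTGcaccggggacac
MNT, chr17:2401236-2401265, in peaks of both lines: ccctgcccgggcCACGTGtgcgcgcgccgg
MXD1, chr2:69914273-69914302, in the MM.1S peak alone: ccccgcagcagcCACGTGgcgcctgcccta
The E-box centers shown for MAX lay 169 bp and 570 bp before the 5′ end of the RefSeq gene, at 65102695. At MNT they lay 191 bp before and 1328 bp after the start, and at MXD1 822 bp before it. The sites found in MM.1S alone were at the edges of peaks that both lines shared and that ended earlier in RPMI8226, so they differed by where a boundary was drawn. RefSeq promoters, from 250 bases before to 50 after a start, matched 6 of the 8 genes, and 7.26% of all 35116 such promoters held CACGTG. Among the 9 promoters listed for the 6 genes, 1 promoter, that of MNT, held it. The 2 listed for MAX belong to starts farther into the gene, at 65101684 and 65102283, so the MAX sites above lie outside them.

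The promoters of MAX and of its repressor partners were open in every library of both lines. MAX, the obligate partner of the network, had 1 promoter peak, of 1350 bp in MM.1S (chr14:65101927-65103276, support 9 of 9) and 1044 bp in RPMI8226 (chr14:65102211-65103254, support 5 of 5). At MXD1 the promoter peak spanned 1090 bp in MM.1S (chr2:69914248-69915337) and 970 bp in RPMI8226 (chr2:69914293-69915262), called in all libraries of each line. MNT had 3 promoter peaks in each line, again all called in every library. The peak at the MNT start was 1183 bp wide in MM.1S (chr17:2401020-2402202) and 1114 bp in RPMI8226 (chr17:2401073-2402186). Its RPMI8226 boundary fell just upstream of the RefSeq start at 2401060, whereas the MM.1S peak covered the start. The widest MNT promoter peak was at an internal start and reached 1845 bp in MM.1S (chr17:2392376-2394220) and 1696 bp in RPMI8226 (chr17:2392372-2394067). The 250 bases before the MNT start are shown because they hold the only E-box among the 9 listed RefSeq promoters (GRCh38.p14, chr17:2401061-2401310, minus strand, E-box in capitals).
MNT: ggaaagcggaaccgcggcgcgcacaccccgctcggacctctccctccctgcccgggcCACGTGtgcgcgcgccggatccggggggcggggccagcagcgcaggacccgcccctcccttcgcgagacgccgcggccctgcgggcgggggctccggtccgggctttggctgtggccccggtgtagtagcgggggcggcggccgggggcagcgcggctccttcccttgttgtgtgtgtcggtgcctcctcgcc

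MXI1, which encodes another MAX-binding repressor, had several promoters, and 1 of its promoter peaks was wide in MM.1S and missing from RPMI8226. Over its annotated starts, MM.1S had 6 promoter peaks and RPMI8226 also 6. The peak at the first start was 437 bp wide in MM.1S (chr10:110207378-110207814, support 9) and 278 bp in RPMI8226 (chr10:110207424-110207701, support 5). The peak at the last RefSeq start, at 110225996, was 1756 bp wide in MM.1S (chr10:110225637-110227392, support 9) and 735 bp in RPMI8226 (chr10:110225775-110226509, support 5). Between them, next to the RefSeq start at 110210231, MM.1S had a peak of 1048 bp in 8 of 9 libraries (chr10:110209151-110210198) that RPMI8226 lacked. The 250 bases before that start are shown with the 218 bases inside the MM.1S peak in capitals (GRCh38.p14, chr10:110209981-110210230, plus strand).
MXI1: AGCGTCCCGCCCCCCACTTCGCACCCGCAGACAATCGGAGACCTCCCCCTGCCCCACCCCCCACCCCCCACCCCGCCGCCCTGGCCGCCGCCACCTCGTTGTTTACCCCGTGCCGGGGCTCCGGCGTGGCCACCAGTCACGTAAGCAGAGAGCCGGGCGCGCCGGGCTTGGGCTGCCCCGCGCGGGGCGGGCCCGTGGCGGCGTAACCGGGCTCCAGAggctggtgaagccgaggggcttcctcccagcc
The stretch is rich in G and C, which made up 75.3% of the 300-base RefSeq promoter. It held none of the E-box, AP-1 or CTCF letters that were searched.

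Both MYC paralogs had promoters open in every library. MYCN, which is known for its amplification in neuroblastoma, had a peak of 1457 bp in MM.1S (chr2:15939624-15941080, support 9) and of 1287 bp in RPMI8226 (chr2:15939764-15941050, support 5). In MM.1S the opening went on into the gene with peaks of 272 bp (chr2:15941546-15941817) and 444 bp (chr2:15942065-15942508), each called in 4 of 9 libraries and absent from the RPMI8226 list. MYCL, first found amplified in lung cancer, had 1 peak of 1603 bp in MM.1S (chr1:39901062-39902664, support 9). RPMI8226 had 2 peaks over the same stretch, of 663 bp (chr1:39901112-39901774) and 677 bp (chr1:39901975-39902651), both called in all 5 libraries. The RefSeq start of MYCL, at 39901917, lay between the 2 RPMI8226 peaks. The 250 bases before this start are shown with the 57 bases outside the RPMI8226 peaks in capitals (GRCh38.p14, chr1:39901918-39902167, minus strand). The whole stretch was inside the MM.1S peak.
MYCL: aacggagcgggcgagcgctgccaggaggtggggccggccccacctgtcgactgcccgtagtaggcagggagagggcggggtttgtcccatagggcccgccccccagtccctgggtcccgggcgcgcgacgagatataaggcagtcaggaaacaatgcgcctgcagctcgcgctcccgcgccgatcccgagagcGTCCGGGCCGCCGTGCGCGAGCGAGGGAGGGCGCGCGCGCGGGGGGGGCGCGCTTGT

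Counting all annotated starts, the 8 genes had 25 promoter peaks in MM.1S and 22 in RPMI8226, where a promoter peak lay within 2500 bp of a start. A promoter peak was the usual state of protein-coding genes, as given above (77% and 72%). PVT1 is noncoding, and 27.3% and 26.1% of genes other than protein-coding ones had a promoter peak. It has 132 annotated starts, MXI1 37, and MAX and MYC 14 each, which gives more places where a peak counts. In the wider network promoter peaks were also the rule. All 6 partners and repressors, all 11 cofactors and all 6 genes for the turnover of MYC that were listed had a promoter peak in both lines. The plot of promoter peaks around each gene start shows the boundaries side by side.

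**Figure D1:**
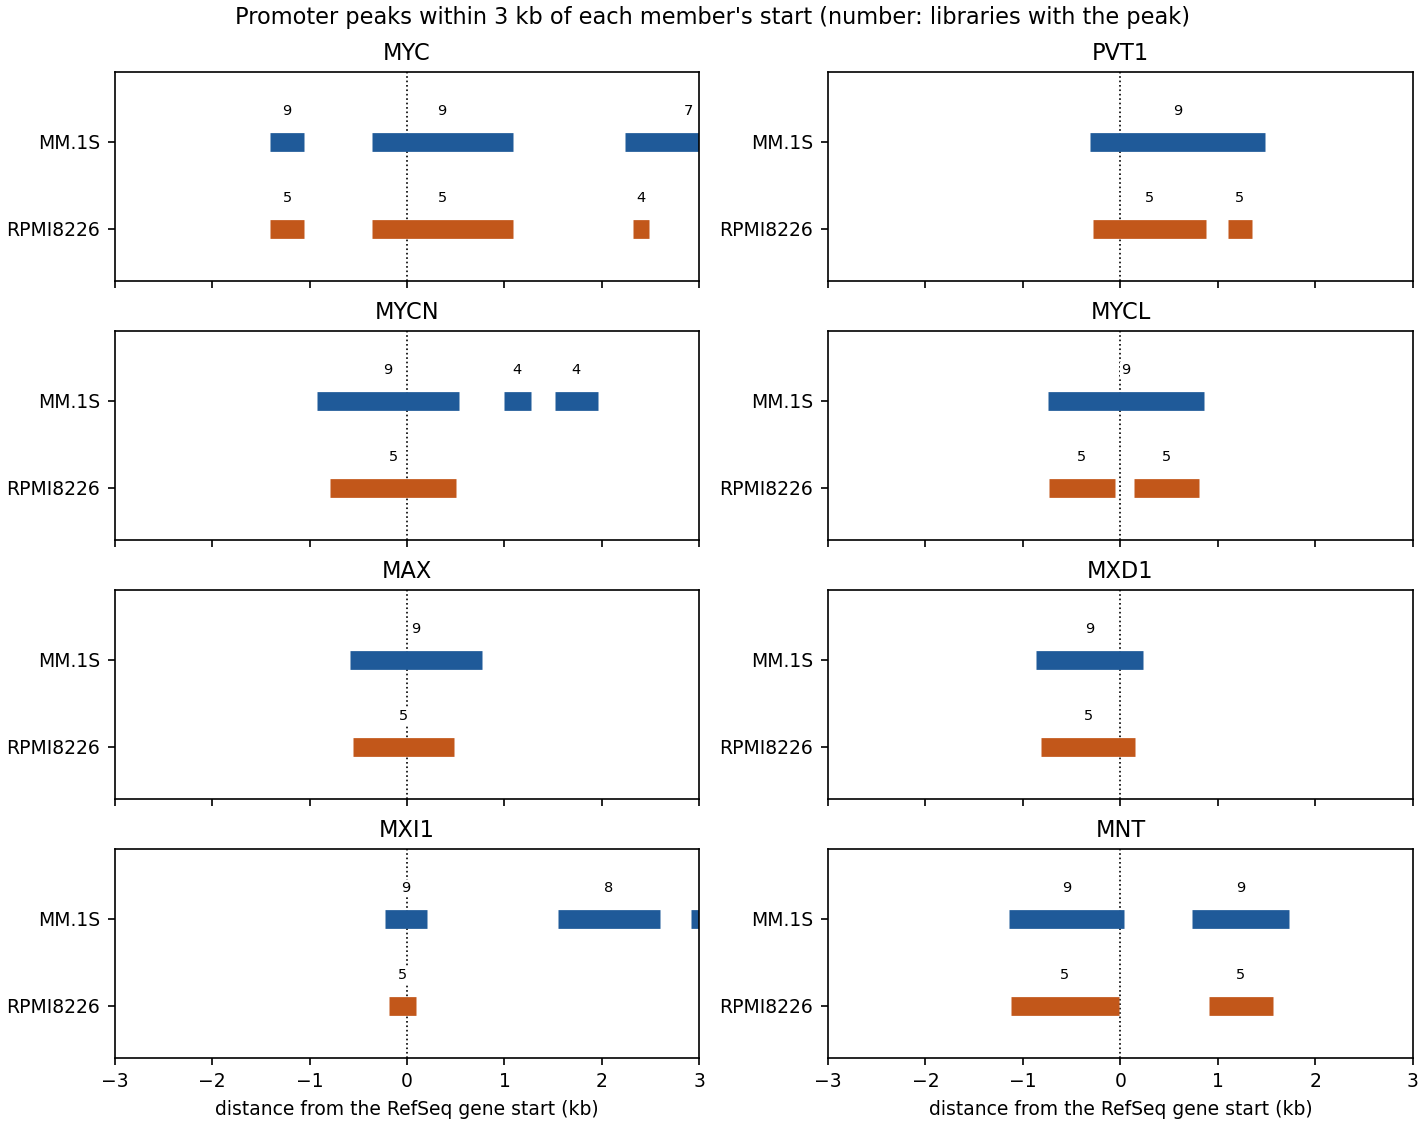
Promoter peaks of MM.1S (blue) and RPMI8226 (orange) within 3 kb of the RefSeq start of each of the 8 genes, drawn in the direction of the gene, with the support above each peak. The central MYC peak had nearly the same boundaries in both lines (1448 and 1444 bp), the MYCL and PVT1 peaks of MM.1S were each split into 2 in RPMI8226, and peaks farther from the start, such as that of MXI1 at its last start, lie outside the panels.

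Among the peaks at the starts of the 8 genes, that of MYC was the most alike between the lines. It covered the start from chr8:127735070 to 127736517 in MM.1S and from 127735074 to 127736517 in RPMI8226. Its width was 1448 and 1444 bp, and it was called in all libraries of both lines. These widths were at the 96.2 and 99.3 percentile of their lists. A second peak upstream was 355 bp wide in MM.1S (chr8:127734028-127734382, support 9) and 353 bp in RPMI8226 (chr8:127734028-127734380, support 5). The lines differed more within the gene. The peak that began at chr8:127737668 was 1299 bp wide in MM.1S (support 7 of 9), whereas RPMI8226 had 168 bp there (chr8:127737752-127737919, support 4 of 5). At the end of MYC the peaks were 878 bp (chr8:127741535-127742412, support 8) and 836 bp (chr8:127741621-127742456, support 5).

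The start of PVT1 lay in the widest MM.1S peak of the window, of 1799 bp (chr8:127794211-127796009, support 9), which also covered the microRNA gene MIR1204. RPMI8226 had 2 peaks there, of 1159 bp (chr8:127794242-127795400) and 251 bp (chr8:127795624-127795874), both in all 5 libraries. PVT1 has 132 annotated starts, so a promoter peak inside it need not mark a main start. A peak in an intron near the start and another farther along were alike in the lines. The first spanned 922 bp in MM.1S (chr8:127800882-127801803) and 905 bp in RPMI8226 (chr8:127800891-127801795), and the other 599 bp (chr8:127889839-127890437) and 593 bp (chr8:127889843-127890435), each in all libraries.

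In the 2-Mb window around MYC (chr8:126735434-128735434), MM.1S had 78 peaks and RPMI8226 62, although the RPMI8226 list is the longer one. The peaks covered 45493 bp in MM.1S and 22442 bp in RPMI8226. As a share of each list, the window held more of the MM.1S peaks, with a log2 ratio of MM.1S over RPMI8226 of 0.47 (95% interval -0.01 to 0.95, counting error only). For chromosome 8 as a whole the ratio was 0.12. Among windows of the same size around the starts of protein-coding genes, which overlap each other, the ratio had a median of 0.05 and quartiles of -0.14 and 0.24, and that of MYC was at the 90.3 percentile. The counts themselves were ordinary, at the 54.8 percentile of such windows in MM.1S (median 72) and the 33.9 percentile in RPMI8226 (median 79). Among peaks called in every library the log2 ratio was 0.47 (-0.14 to 1.09). With MM.1S peaks of support 6 or more it was 0.44 (-0.07 to 0.95). The ratios stayed near that of all peaks although the counts were then nearly equal, because the MM.1S list as a whole also lost more peaks. Within 500 kb of the MYC start the counts were 45 and 43.

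**Figure D2:**
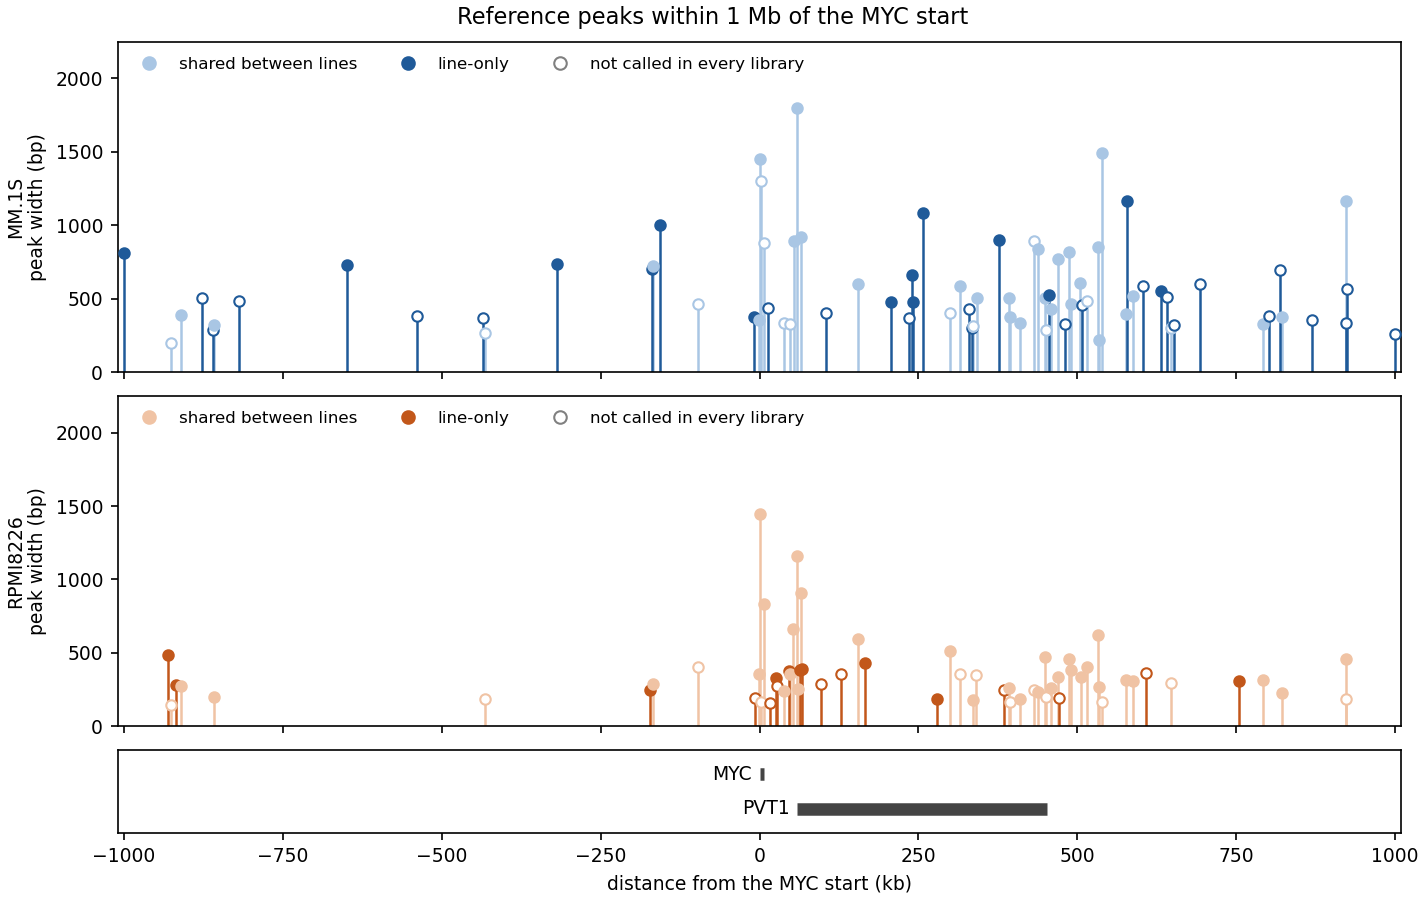
Width in bp of each reference peak against its distance from the MYC start in kb, for MM.1S (upper) and RPMI8226 (middle), with the gene bodies of MYC and PVT1 (lower). Pale peaks were shared between the lines, dark peaks were in 1 line, and open circles mark peaks not called in every library; MM.1S had dark peaks 207 to 258 kb downstream, where RPMI8226 had none.

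Peaks were shared when 1 bp or more of them fell in a peak of the other line. In the MYC window 42 of 78 MM.1S peaks were shared (53.8%, 95% Wilson interval 42.9 to 64.5), against 64.6% of the whole MM.1S list. Of the RPMI8226 peaks 44 of 62 were shared (71%, 58.7 to 80.8), against 62% of the whole RPMI8226 list. Neighboring peaks are not independent, so these intervals are too narrow. Among peaks called in every library, 29 of 43 MM.1S peaks and 32 of 42 RPMI8226 peaks were shared. The shares were 58.1% and 61.9% when the overlapped peak also had to be called in every library. RPMI8226 had the higher share each time. An overlap counts in both lines, so over all peaks the shared counts were close (42 and 44). The order of those shares mostly restates the totals of 78 and 62. The window held 36 peaks in MM.1S alone and 18 in RPMI8226 alone. Of the MM.1S-only peaks 14 were called in all 9 libraries, 17.9% of the peaks of the window against 9.71% of the whole list. Of the RPMI8226-only peaks 10 were called in all 5 libraries, 16.1% against 16.6%.

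The lines differed in where these peaks lay, as the plot of peaks in 100-kb bins shows. In the 100 kb from the MYC start, RPMI8226 had 16 peaks and MM.1S had 9, yet the peaks covered 8222 and 8335 bp. In the 51.6 kb between MYC and PVT1 there were 7 peaks in RPMI8226 and 4 in MM.1S, of which 3 were shared in each line, and in the first 100 kb of PVT1 there were 8 and 4. Farther along the order turned. From 200 to 300 kb MM.1S had 6 peaks and RPMI8226 2, and from 600 to 700 kb again 6 and 2. Over the remaining 292.6 kb of PVT1 the counts were 19 in MM.1S and 14 in RPMI8226, with 11 shared in each. The 100 kb after PVT1 was dense in both lines, with 12 and 10 peaks, of which 9 were shared in each. The 1 Mb before MYC was sparse in both, with 18 and 11 peaks, of which 7 were shared in each.

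**Figure D3:**
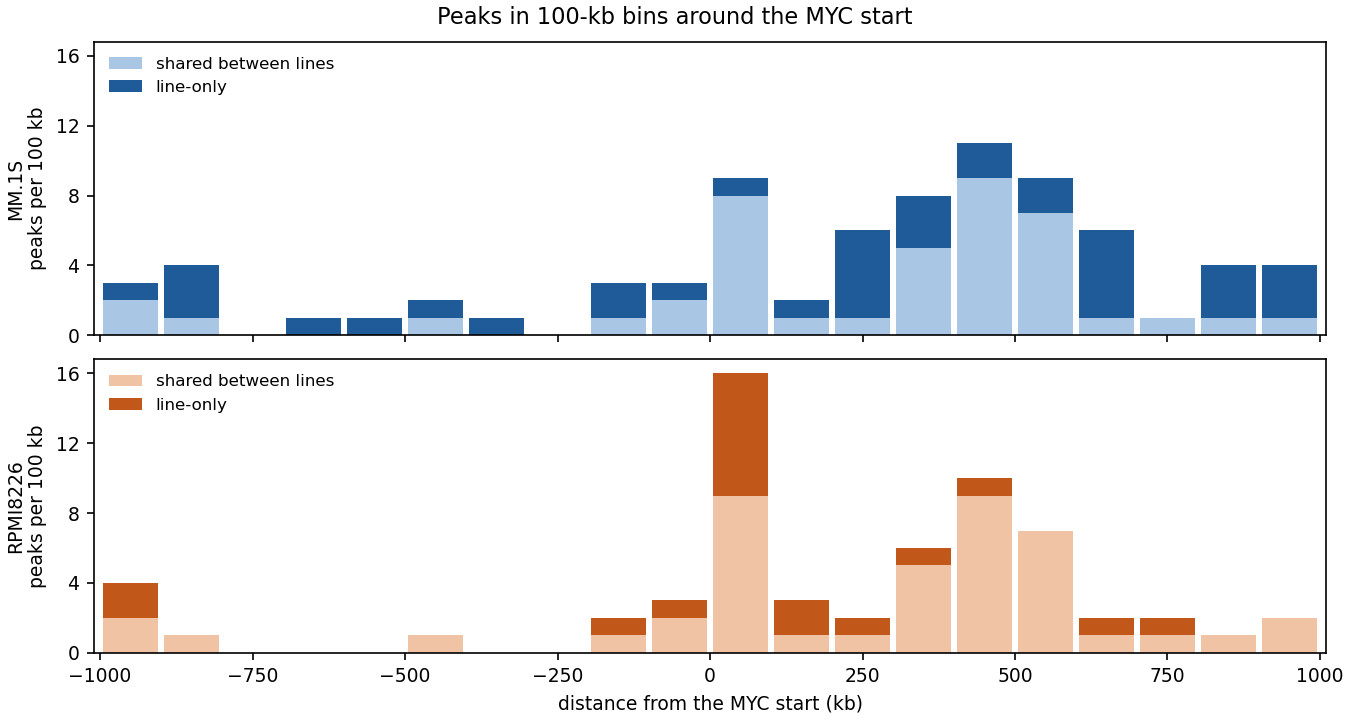
Number of reference peaks in 100-kb bins by distance from the MYC start in kb, for MM.1S (upper) and RPMI8226 (lower), with shared peaks pale and line-only peaks dark. RPMI8226 had 16 peaks in the bin after the start, where MM.1S had 9, and MM.1S had 6 from 200 to 300 kb, where RPMI8226 had 2.

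The longest run of MM.1S-only peaks in the window was inside PVT1. It held 5 peaks over 51.4 kb (chr8:127942202-127993593), 207 to 258 kb after the MYC start, of which 4 were called in all 9 libraries. The widest was 1083 bp (chr8:127992511-127993593), and those of 660 bp (chr8:127975612-127976271) and 479 bp (chr8:127976551-127977029) lay next to each other near annotated starts within PVT1. RPMI8226 had no reference peak from 166 to 279 kb after the MYC start, a gap of 114 kb. The longest RPMI8226-only runs held 3 peaks each. One spanned 12.6 kb between MYC and PVT1 (chr8:127751143-127763730, 15.7 to 28.3 kb after the MYC start) and the other 61.8 kb of PVT1 (chr8:127802679-127864450, 67.2 to 129 kb after it). Each had 1 peak called in all 5 libraries, so the RPMI8226 runs rested on fewer full calls than the MM.1S run.

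The widest peaks of the lines were spread differently. The 5 widest of RPMI8226 were all shared and all within 66 kb of the MYC start, at the MYC promoter, the PVT1 start, an intron of PVT1, the end of MYC, and between the genes (664 bp, chr8:127788538-127789201, 53.4 kb from the start). The 5 widest of MM.1S included 2 far downstream. One of 1491 bp lay 538 kb from the MYC start (chr8:128273060-128274550, support 9), outside any annotated gene, where RPMI8226 had 165 bp with support 3. The other, of 1164 bp, was in an intron of CCDC26 at 922 kb (chr8:128657173-128658336, support 9). Among MM.1S-only peaks in all 9 libraries the widest were 1163 bp (chr8:128313291-128314453), 1083 bp in the run above, 999 bp (chr8:127577791-127578789), 899 bp in PVT1 (chr8:128111667-128112565) and 813 bp (chr8:126735628-126736440). The widest RPMI8226-only peaks in all 5 libraries were narrower, at 484 bp (chr8:126805102-126805585), 430 bp (chr8:127900556-127900985), 391 bp (chr8:127802679-127803069), 383 bp (chr8:127799611-127799993) and 375 bp (chr8:127781698-127782072).

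Other genes around MYC also had promoter peaks, some of them in MM.1S alone. Of 27 other annotated genes that reach into the window, of which only POU5F1B is protein-coding, 13 had a promoter peak in MM.1S and 8 in RPMI8226, and all 8 were among the 13. Over all genes other than protein-coding ones, 27.3% had a promoter peak in MM.1S and 26.1% in RPMI8226. The counts include CCDC26, whose promoter peaks lie outside the window, and genes that share peaks with MYC or PVT1, such as CASC11 and MIR1204. POU5F1B, a retrogene related to the stem cell factor gene POU5F1, had a promoter peak of 736 bp in all 9 MM.1S libraries (chr8:127416213-127416948) and none in RPMI8226. CASC19 and LINC00824, both noncoding, and 2 unnamed genes also had promoter peaks in MM.1S alone. CASC8, CCAT2 and PRNCR1, noncoding RNA genes of the stretch upstream of MYC that is known for cancer risk variants, had no promoter peak in either line, although the promoter peak of an unnamed gene in MM.1S overlapped an exon of PRNCR1.

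The other 6 windows were smaller and held fewer peaks. MYCN had 8 peaks in MM.1S and 7 in RPMI8226, of which 4 and 5 were shared, and its widest distal peak in MM.1S was in that line alone (859 bp, chr2:15965392-15966250, support 8). Around MYCL there were 12 and 16 peaks, of which 11 and 13 were shared, the only window with a log2 ratio of list shares below 0 (-0.28). MAX had 13 and 11 peaks, with 8 shared in each. MXD1 had 10 in each line, with 8 shared in each. MXI1 had 21 and 22, with 14 and 15 shared, and its window was the most densely filled of the 6 in MM.1S and in RPMI8226, at the 81.5 and 82.5 percentile of gene bodies with the same flanks. MNT had 10 and 8, with 7 shared in each. The log2 ratio of list shares was 0.33 for MYCN, 0.38 for MAX, 0.14 for MXD1, 0.07 for MXI1 and 0.46 for MNT. Each rested on 22 peaks or fewer in a line. Over protein-coding genes with the same flanks the ratio had a median of 0.14 and quartiles of -0.24 and 0.40. MYCL was at the 22.6 percentile and MNT at the 77.6 percentile. Over the whole lists 64.6% of MM.1S and 62% of RPMI8226 peaks were shared.

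**Figure D4:**
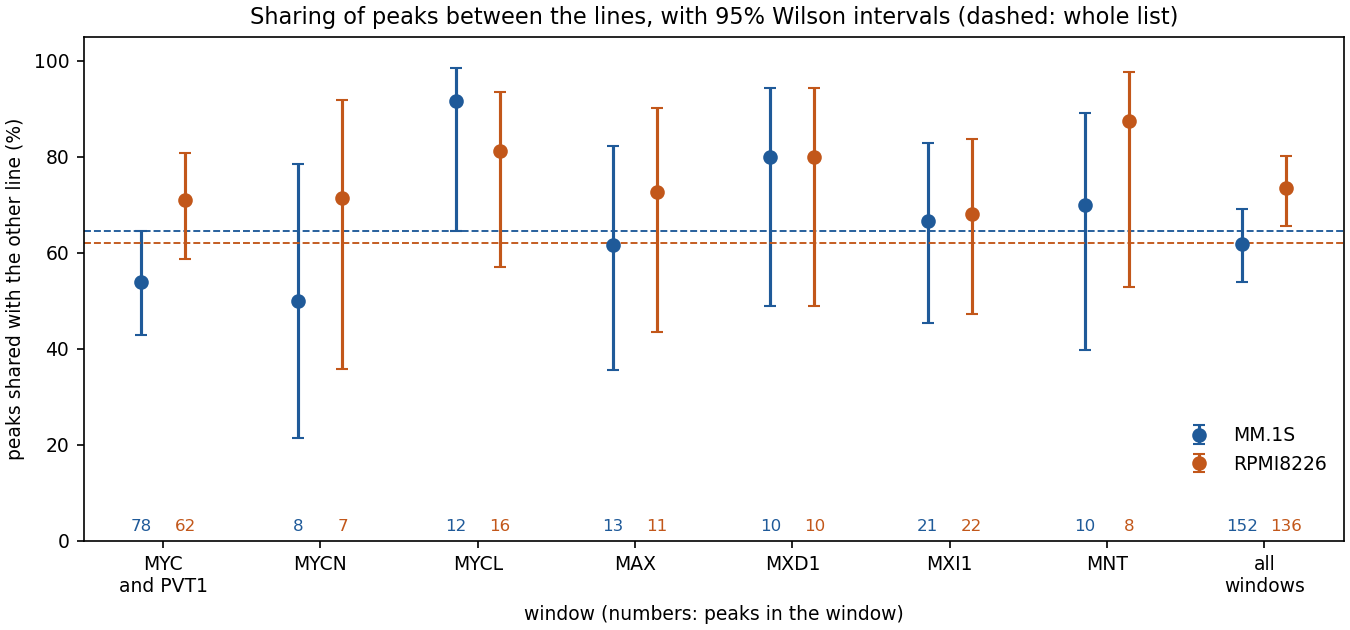
Percent of the reference peaks of MM.1S (blue) and RPMI8226 (orange) that overlapped a peak of the other line, for each window and for all windows, with 95% Wilson intervals and the whole-list shares as dashed lines. Most intervals reach across the dashed lines; over all windows 61.8% of the MM.1S and 73.5% of the RPMI8226 peaks were shared.

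Distal peaks with the largest width in these windows were mostly shared. The widest was 149 kb from the first MXI1 start, where MM.1S had 2135 bp (chr10:110356038-110358172, support 9) and RPMI8226 had 979 bp (chr10:110356372-110357350, support 5) and 195 bp (chr10:110356019-110356213, support 3). Near MNT a peak in an intron of SGSM2 was 1718 bp wide in MM.1S (chr17:2352333-2354050, support 9) and 260 bp in RPMI8226 (support 5). At MAX the order was the other way, as a peak 54 kb before the start was 1087 bp wide in RPMI8226 (chr14:65156149-65157235) and 662 bp in MM.1S (chr14:65156467-65157128), in all libraries of each line. At MYCL the widest distal peaks were 850 and 654 bp, and at MXD1 680 and 735 bp.

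Over all windows the order of the lines in sharing depended on the support asked of both overlapping peaks. Of all peaks, 94 of 152 MM.1S peaks (61.8%, 53.9 to 69.2) and 100 of 136 RPMI8226 peaks (73.5%, 65.5 to 80.2) were shared. Over the whole lists 64.6% and 62% were shared. Peaks called in every library were 87 of the 152 (57.2%) in MM.1S and 96 of the 136 (70.6%) in RPMI8226, against 52% and 64.1% of the whole lists. Of these peaks, 69 of 87 in MM.1S and 80 of 96 in RPMI8226 overlapped any peak of the other line, which kept the order. The rest were in 1 line alone. They were 11.8% of the MM.1S window peaks, against 9.71% of its list, and 11.8% of the RPMI8226 ones, against 16.6%. The shared percentages were 72.4% and 69.8% when the overlapped peak also had to be called in every library, which turned the order. That turn mostly restates the kept totals of 87 and 96. Shares of the whole lists were not taken under that rule. In the MYC window, peaks called in every library were 43 of 78 (55.1%) and 42 of 62 (67.7%). Since 3 MM.1S libraries were MONO, a peak with support of 6 or less could have been called in cocultured cells alone. This was possible for 22 MM.1S peaks of the MYC window (28.2%, against 27.7% of the list) and, at support of 4 or less, for 20 RPMI8226 peaks (32.3%, against 35.9%). The other peaks must have been called in at least 1 MONO library, including the promoter peaks at the start of each of the 8 genes.

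Peaks of MM.1S were the wider ones in both the lists and the windows. Where a peak of one line overlapped 1 peak of the other and no more, MM.1S had the wider in 81.6% of 44631 pairs, with a median log2 width ratio of 0.36. In the MYC window MM.1S had the wider in 37 of 40 pairs (92.5%), with medians of 474 and 312.5 bp and a ratio of 0.50. At MNT it was wider in 7 of 7 pairs and at MXI1 in 12 of 13, but at MAX in 4 of 8, where the median ratio was -0.09.

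**Figure D5:**
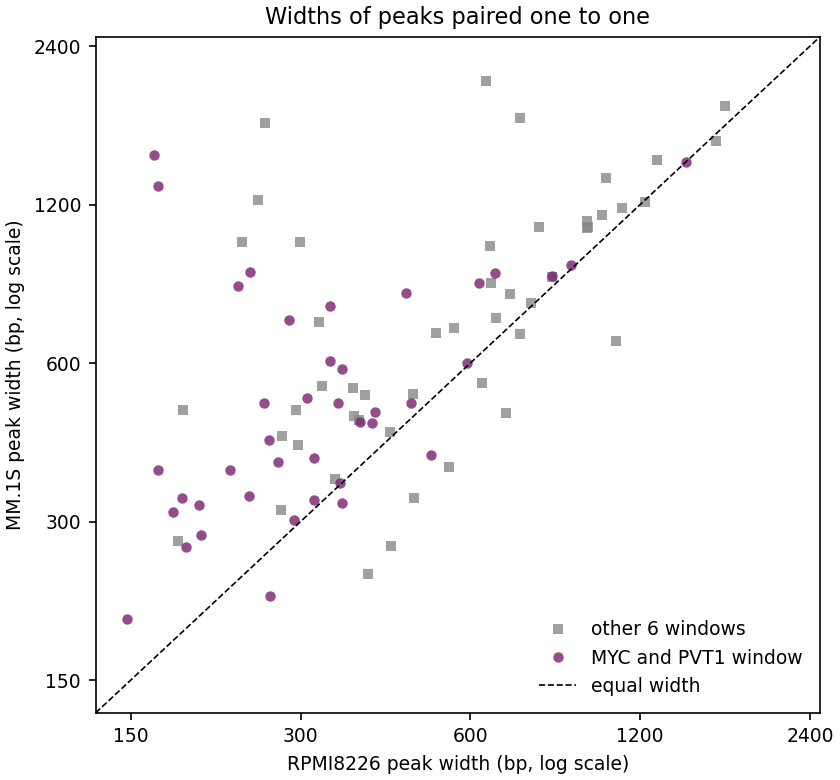
Width in bp (log scales) of each MM.1S peak against that of its RPMI8226 partner, for peaks that overlapped exactly 1 peak of the other line, in the MYC and PVT1 window (purple) and in the other 6 windows (gray), with the line of equal width dashed. In 75 of 88 pairs the MM.1S peak was the wider.

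Sequence letters of 5 transcription factor motifs were searched in the peaks on both strands, over the whole peak. The E-box (CACGTG) was in 8 of the 78 MM.1S peaks of the MYC window (10.3%) and 2 of the 62 RPMI8226 peaks (3.23%), against 12% and 8.1% of the lists, and in none of the MYC promoter peaks of either line. In the other 6 windows together it was in 13.5% and 14.9%. Among distal peaks of all windows the E-box was in 10.6% and 8.24%. These shares were above those of distal list peaks in both lines (8.82% in MM.1S). AP-1 letters (TGANTCA), bound by FOS and JUN proteins, were in 30.8% and 32.3% of peaks of the MYC window, against 21.6% and 25.8% of the lists. Most peaks of this window were distal (58 of 78 in MM.1S and 50 of 62 in RPMI8226). Among distal peaks of all windows AP-1 letters were in 34% and 35.3%, against 23.9% and 29.3% of distal list peaks. In the central 200 bp of all window peaks they were in 12.5% and 16.2%, against 9.97% and 17.6% of the lists. The RPMI8226 share was thus not above its list there. The core of the CTCF motif (CCANNAGGG), which marks loop anchors, was in 7.69% and 3.23% of peaks of the MYC window, against 16.1% and 11.6% of the lists. Of distal list peaks 13.7% and 10.1% held it. STAT letters (TTCCNGGAA) were in 2 and 1 peaks, against 1.98% and 1.43% of the lists. The ISRE core (GAAANNGAA), bound by interferon regulatory factors, was in 29.5% and 14.5%, against 23.6% and 17.4%. It was in 16 of the 36 MM.1S-only peaks (44.4%) and 7 of the 42 shared ones (16.7%), whereas over the MM.1S list it was in 22.5% of line-only and 24.2% of shared peaks, and the median widths of these groups in the window were 480 and 494 bp. In the other 6 windows it went the other way, in 3 of 22 MM.1S-only peaks (13.6%) and 17 of 52 shared ones (32.7%). This split was chosen after the values of 5 motifs were seen. Wider peaks hold more letters and thus more matches, which bears on shares compared between the lines.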

How the data were processed

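Omni-ATAC had been performed on 14 libraries, grouped by cell line and culture from their titles. The authors had mapped reads to hg38 with Bowtie2 and called peaks with MACS3, whose versions are not given in the sources used here. The deposited lists hold peak positions and 1 whole number for each peak, without a header, in a unit other than reads and without normalization. It was read as the number of libraries with the peak because it ran from the authors' minimum of 3 to the number of libraries of each line. How boundaries of several libraries were joined is not stated, and affects widths and splits.

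Starts were made 1-based. Coordinates of 152771 peaks were checked against hg38, and 0 lay beyond a chromosome end. Genes came from GENCODE release 44 (the study used RefSeq), and sequences from hg38 and RefSeq. Named were all 8 genes, their promoter peaks, and the widest peaks and longest runs by fixed rules. POU5F1B and other neighbors, and peaks beside these, were named after their values were seen. Members and lists were chosen with earlier results of these data known. Shares have 95% Wilson intervals, and the log2 ratio of shares an interval from both counts. Scripts were tested on simulated data (Python 3.11.15, NumPy 2.4.6, SciPy 1.17.1, Matplotlib 3.10.9). Tests between MONO, TSW and CO need read counts and were not run. 1 sequence is not reported here. Alternatives varied flanks, support, width, overlap, promoters and motif stretch.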

Additional observations from a re-analysis of the deposited data

How the results depend on the processing

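No paired analysis was possible because each line has 1 list that pools its libraries. Leaving out a library was not possible either. Among the recomputed values, 49 stayed close to those reported, 29 moved. The order of the lines turned in several. With flanks of 50 kb (500 kb at MYC), the windows held 88 MM.1S and 82 RPMI8226 peaks, with 45 MM.1S peaks around MYC, and with 200 kb (2 Mb at MYC) 261 and 249. With only peaks called in every library kept in both lists, MM.1S had 87 and RPMI8226 96 peaks in all windows (reported 152 and 136). Of these, 72.4% and 69.8% were shared with a kept peak (reported 61.8% and 73.5%, with any peak). Around MYC 43 and 42 peaks were kept. With MM.1S support of at least 6, the windows held 121 and 136 peaks, 67.8% and 64.7% of them shared, with 60 and 62 around MYC. This limit thinned the MM.1S list alone, so the RPMI8226 share fell because possible partners were left out. When peaks narrower than the median of their list were left out, 71 MM.1S and 65 RPMI8226 peaks remained in all windows (53.5% and 61.5% shared), and 31 and 19 around MYC (29.0% and 47.4% shared). Sharing was again counted among kept peaks only. When sharing required overlap of 50% of both peaks, 48.7% and 54.4% were shared in all windows and 42.3% and 53.2% around MYC. In the central 200 bp the E-box was in 1.97% of MM.1S and 3.68% of RPMI8226 window peaks, against 4.09% and 3.71% of the lists (whole peaks 11.8% and 9.56%). The log2 ratio around MYC stayed above 0 and ranged from 0.20 (500 kb) to 0.85 (wide peaks) and was 0.61 by summed width. The promoters of all 8 genes kept a peak in both lines under each promoter rule. Without read counts at each peak, a peak missing from a list is not shown to be closed chromatin, and the lines differ in libraries and in the share of libraries that 3 calls ask for.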
